A study of Mus musculus with 12 samples.

Results

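Broad domains of acetylated chromatin that also carry the promoter mark H3K4me3 were described in fetal livers of C57BL/6 mice at embryonic day 14.5. A consensus region of a mark was a merged stretch of the peaks of all its libraries, on chromosomes 1 to 19, X and Y, that held a peak of every library. The domains were the consensus H3K27ac regions of at least 8 kb that overlapped a consensus H3K4me3 region by at least 1 bp, and they numbered 1061 of 1452 broad H3K27ac regions (73.1%) and of 18238 consensus H3K27ac regions (5.82%). Peak lists of H3K27ac (2 libraries), H3K4me3 (2), H3K4me1 (3) and H3K4me2 (2) came from ChIP-seq of whole fetal liver, and lists of open chromatin came from ATAC-seq of proerythroblasts of the same strain and age (2 libraries). The marks and the open sites therefore come from different cell populations, and fetal liver holds many cell types. An input DNA library was not used.

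Acetylation of lysine 27 of histone H3 (H3K27ac) marks active promoters and enhancers. Trimethylation of lysine 4 (H3K4me3) is concentrated at active promoters, its monomethylation (H3K4me1) at enhancers and on the flanks of promoters, and its dimethylation (H3K4me2) at both. Long unbroken stretches of H3K27ac are known from genes that define a cell type, where a promoter and the enhancers around it can be acetylated as a block. The fetal liver is the main blood-forming organ of the embryo, proerythroblasts are the earliest recognisable red cell precursors, and ATAC-seq uses a transposase that cuts accessible DNA, so that its peaks mark open sites.

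The domains were chosen by H3K27ac width and by contact with H3K4me3, so both are a description here and were not tested. The peak lists hold no read counts, and the depth of the libraries is unknown. The H3K27ac lists held 28387 and 23733 peaks, the H3K4me3 lists 14027 and 16886, and the ATAC lists 18441 and 28980, with replicate 1 first in each pair. A library with more peaks can simply be a deeper library. The labels do not say that replicates came from separate litters or pools, so errors and p-values measure the spread between these libraries, which may be technical. In bulk libraries, fewer cells of a type and less mark per cell cannot be told apart. Domains share the same libraries and are no replicates of each other, and intervals on shares of regions are exact Clopper-Pearson 95% intervals that cover counting error only.

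The domains were mostly long single blocks of acetylation. Their median width was 12.3 kb, from 8.01 to 74.5 kb, against a median of 10.6 kb, from 8.01 to 38.6 kb, for the 391 broad H3K27ac regions without H3K4me3. They covered 15.8 Mb in all and lay on every chromosome used except Y, from 12 domains on the X chromosome to 90 on chromosome 11. H3K27ac replicate 1 called 79.6% of them as 1 peak and replicate 2 called 56.0%, and the median domain had 98.0% and 92.3% of its bases under the peaks of those libraries. Where replicate 1 split a domain, its peak of highest fold enrichment touched H3K4me3 in 210 of 216 domains, and in replicate 2 it did so in 433 of 467. Contact with H3K4me3 is part of the rule, and these counts were not set against the share of all peaks that touched it. The median H3K27ac fold enrichment, the authors' value over the background of the peak caller, was 4.87 and 4.20 in the domains and 3.95 and 3.61 in broad regions without H3K4me3.

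Membership depended on the library. Taken from a single library of each mark, the domains numbered between 824 and 1142. Of the 391 broad regions left out for want of a consensus H3K4me3 region, 9 met a peak of H3K4me3 replicate 1 and 202 met a peak of replicate 2. The 3 narrowest domains, chr14:103739476-103747483, chr14:32781688-32789695 and chr14:63367598-63375611, were 8008, 8008 and 8014 bp wide with 46.3%, 51.3% and 19.6% of their bases under H3K4me3. Just under the limit lay chr5:109174809-109182800, chr9:42906755-42914747 and chr6:117864052-117872048, which were 7992, 7993 and 7997 bp wide with 24.2%, 100% and 71.0% under H3K4me3. All positions are in the mouse build mm9.

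H3K4me3 took a minor part of most domains, usually as a single block. A single H3K4me3 region lay in 773 domains (72.9%, interval 70.1 to 75.5), 2 lay in 247, 3 in 33, 4 in 7 and 8 in a single domain. The median domain had 33.3% of its bases under H3K4me3, with a range of 1.17% to 100%. At least 50% of the bases were under H3K4me3 in 281 domains (26.5%) and under 10% in 131 (12.3%). Over all domains H3K4me3 took 32.3% of the bases, a value that was 24.9% with H3K4me3 replicate 1 alone and 29.5% with replicate 2 alone, each over the domains that library gave. Where a domain held more than 1 H3K4me3 region, the gap between neighbours had a median of 3.35 kb (0.508 to 36.3 kb, n = 341 gaps).

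H3K4me3 seldom reached the border of the domain. It lay at an end of the domain in 219 cases (20.6%, interval 18.2 to 23.2), and at both ends in 9. With H3K4me3 replicate 1 alone the share at an end was 13.8%, and with replicate 2 alone it was 17.0%. Of the 1402 H3K4me3 blocks counted in the domains, 1178 (84.0%) lay wholly within the acetylated stretch. The 224 that crossed its border ran past it by a median of 344 bp, with a range of 8 to 6651 bp. Acetylation thus extended beyond the outermost H3K4me3 by a median of 5.40 kb on the longer side and 1.29 kb on the shorter side.

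The place of H3K4me3 was read in the domains with a single region. Of these 773 regions, 121 (15.7%) reached an end of the domain, and 652 did not. The 652 domains had a block flanked by arms (the acetylated stretches on either side of the H3K4me3) of 5.98 and 2.16 kb at the median. The longer arm exceeded the shorter by a median factor of 2.64, and the shorter arm made up a median of 27.5% of both. When the positions open to the block were cut into 3 equal parts, the middle part held 39.4% of the blocks (interval 35.6 to 43.3), the left part 26.5% (23.2 to 30.1) and the right part 34.0% (30.4 to 37.8), where each part holds 33.3% of the length. These shares leave out the blocks that reached an end, and of all 773 single regions the middle part held 33.2% (29.9 to 36.7). Among blocks that reached no end, the middle part held 40.2% and 44.2% with each H3K4me3 replicate alone, and 38.8% and 40.5% with each H3K27ac replicate alone. Left and right are genome directions and not directions of transcription, since no gene annotation of this build was used.

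**Figure D1:**
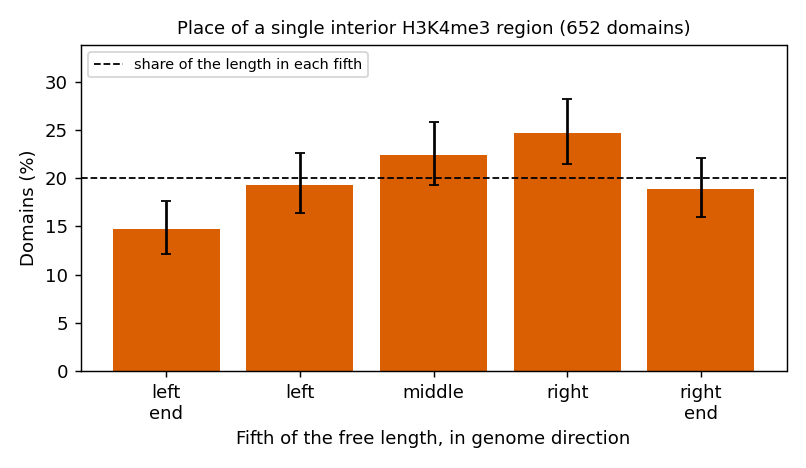
Place of the H3K4me3 region in the 652 domains with a single interior region, in 5 equal parts of the length open to it, as the percentage of domains (vertical axis) with exact 95% intervals as bars; the dashed line is the 20% of the length in each part. The part at the left end held 14.7% of the regions and the part right of the middle 24.7%.

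Wider domains had a smaller share of H3K4me3 but more H3K4me3 blocks. Among the 507 domains of 8 to 12 kb, 42.7% of bases lay under H3K4me3, 26.8% of domains had it at an end and 14.6% had 2 or more blocks. Domains of 12 to 16 kb (268) had 32.0% of bases under H3K4me3 and those of 16 to 24 kb (174) had 28.2%. In the 112 domains of 24 kb and more, 22.7% of bases lay under H3K4me3, 7.14% of domains had it at an end and 63.4% had 2 or more blocks. The median length under H3K4me3 per domain was 4088 bp in the narrowest class and 6281 bp in the widest, so the length grew less than the domain did. A wider domain has more room for blocks, and how far this accounts for their number was not tested.

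**Figure D2:**
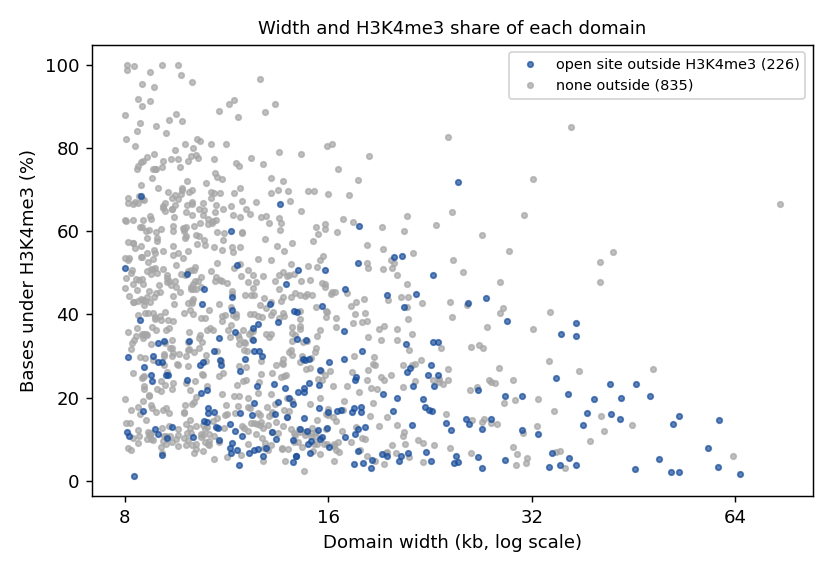
Width of each of the 1061 domains (horizontal axis, kb, log scale) against the percentage of its bases under H3K4me3 (vertical axis); blue points are the 226 domains with an open site outside H3K4me3 and grey points the other 835. Domains above 75% H3K4me3 are grey, and blue points become frequent among the wide domains with little H3K4me3.

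The H3K4me3 regions inside these domains were wide, and less enriched than those in narrower H3K27ac regions. Their median width was 3036 bp (1401 regions), against 2386 bp for the 7882 H3K4me3 regions that met only narrower H3K27ac regions and 1259 bp for the 4317 without H3K27ac. A width of 5 kb or more was found in 26.6% of those in the domains, in 4.10% of those in narrower H3K27ac regions and in 0.556% of those without H3K27ac. The groups were split by H3K27ac width, and an H3K27ac region under 8 kb has less room for a wide H3K4me3 region. How far this rule accounts for the difference in width was not tested. The median fold enrichment in the domains, taking the highest peak of each region, was 4.84 in replicate 1 and 6.23 in replicate 2. It was 9.69 and 11.4 in narrower H3K27ac regions, and 4.09 and 4.75 without H3K27ac. At like width the gap to narrower H3K27ac regions was small only at 4 to 8 kb, the widest class compared. Regions of 1 to 2 kb had 3.53 ± 0.371 in the domains and 8.65 ± 1.16 in narrower H3K27ac regions (SD, n = 2 libraries), those of 2 to 4 kb 5.20 ± 0.785 and 11.4 ± 1.32, and those of 4 to 8 kb 11.7 ± 1.16 and 12.4 ± 1.36. A consensus ATAC site lay on 91.3% of the H3K4me3 regions in the domains, on 94.1% of those in narrower H3K27ac regions and on 46.8% of those without H3K27ac.

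Nearly every domain was open somewhere in proerythroblasts, and nearly always at its H3K4me3. An open site, meaning a consensus ATAC region, lay in 1034 of the 1061 domains (97.5%, interval 96.3 to 98.3), against 243 of the 391 broad regions without H3K4me3 (62.1%, interval 57.1 to 67.0) and 55.7% of all consensus H3K27ac regions. By single libraries the share was 97.6% and 99.9% in the domains, against 62.9% and 83.1% in broad regions without H3K4me3. The difference was 25.8 ± 12.7 percentage points and higher in the domains in both ATAC libraries (exact permutation p = 0.5, two-sided, the smallest that 2 libraries allow). The difference was 16.8 points with ATAC replicate 2 alone, 16.7 without H3K27ac replicate 1, 41.7 without H3K4me3 replicate 1 and 6.04 with peaks of −log10 q of at least 5. By the rule every domain holds H3K4me3, and a consensus ATAC site also lay on 94.1% of H3K4me3 regions in narrower H3K27ac regions. A comparison with broad regions that lack H3K4me3 therefore does not show a high open share to be particular to the broad domains.

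Open sites outside the H3K4me3 were the exception. The domains held 2066 open sites, of which 274 (13.3%, interval 11.8 to 14.8) touched no consensus H3K4me3 region and 1792 touched one. Sites lay only inside H3K4me3 in 808 domains (76.2%), both inside and outside in 213 (20.1%), only outside in 13 (1.23%) and nowhere in 27 (2.54%). Of the 226 domains with an outside site (21.3%, interval 18.9 to 23.9), 185 had 1, 34 had 2 and 7 had 3. Of the 27 domains with no open site, 26 met a peak of ATAC replicate 2 and 2 met a peak of replicate 1, so they were closed by the consensus rather than in every library.

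How many domains had an outside site depended on single libraries. The share was 22.3% with ATAC replicate 1 alone and 36.7% with replicate 2 alone. It was 14.3% without H3K4me3 replicate 1 and 26.6% without H3K4me3 replicate 2. Of the 274 outside sites, 126 met a peak of H3K4me3 replicate 2 that replicate 1 lacked, and 1 met a peak of replicate 1. When any H3K4me3 peak of either library was counted as H3K4me3, a setting chosen after the data were seen, 131 domains (12.3%) had an outside site.

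Per length, the acetylated sequence outside H3K4me3 was sparsely open. It held 0.279 ATAC peaks per 10 kb in replicate 1 and 0.542 in replicate 2, against 3.73 and 4.50 per 10 kb inside H3K4me3 in the same domains. The difference, outside minus inside, was −3.70 ± 0.360 peaks per 10 kb (SD, n = 2 libraries), lower in both (exact permutation p = 0.5, two-sided, the smallest possible). It stayed below 0 in the 13 other settings that entered it, between −4.51 and −2.67. A site that touched H3K4me3 with a single base counted as inside, but placing peaks by their summit, also chosen after the data were seen, left the difference at −3.54.

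The same outside sequence was also less densely open than broad regions without consensus H3K4me3. Broad regions without H3K4me3 held 0.747 and 1.18 ATAC peaks per 10 kb in replicates 1 and 2, against the 0.279 and 0.542 of the outside sequence. The difference was −0.551 ± 0.119 peaks per 10 kb (SD, n = 2), lower in both libraries (exact permutation p = 0.5, two-sided, the smallest possible), and between −0.731 and −0.396 in the 13 other settings that entered it. With H3K4me3 counted as any peak of either library, the outside sequence held 0.162 and 0.370 peaks per 10 kb, against 0.461 and 0.891 in the 182 broad regions that met no H3K4me3 peak. The 1061 domains held 2066 consensus open sites, against 336 in the 391 broad regions without H3K4me3. Per length, the part that H3K4me3 did not cover held fewer. This sets a remainder against whole regions, since sites that touched H3K4me3 were taken out of the domains only. At 4 to 8 kb from the H3K4me3, where each library was densest, the outside sequence held 0.455 and 0.905 peaks per 10 kb. These values were also below the 0.747 and 1.18 of the broad regions without H3K4me3.

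**Figure D3:**
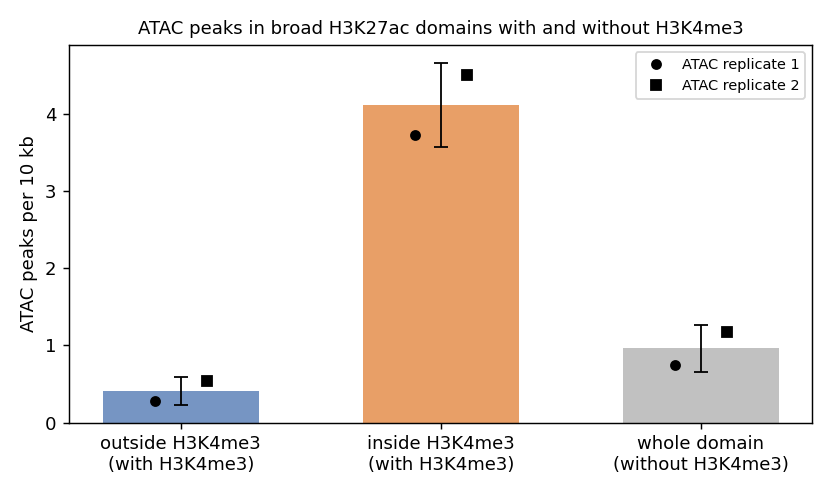
ATAC peaks per 10 kb (vertical axis) outside and inside H3K4me3 in the 1061 domains and in the 391 broad H3K27ac regions without H3K4me3; symbols are the 2 ATAC libraries, bars their mean and error bars the SD. Both libraries lie lowest outside H3K4me3, at 0.279 and 0.542.

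Outside sites were found in more of the wide domains, while their density differed little between the width classes and was lowest in the narrowest. The share of domains with an outside site was 11.8% at 8 to 12 kb, 22.4% at 12 to 16 kb, 32.8% at 16 to 24 kb and 43.8% at 24 kb and more. Their density outside H3K4me3 was 0.230, 0.273, 0.270 and 0.252 per 10 kb in the same order. In broad regions without H3K4me3 the density was 0.745, 0.712, 0.696 and 0.519 per 10 kb, above that of the domains in each width class in both ATAC libraries. Domains with a single H3K4me3 block had 0.294 outside sites per 10 kb (210 sites) and those with 2 or more had 0.178 (64 sites). Where H3K4me3 lay at an end the density was 0.262 (37 sites), and where it lay at no end 0.254 (237 sites).

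Sequence next to the H3K4me3 was the least open. The outside sites lay at a median of 4.45 kb from the nearest H3K4me3 region of their own domain, between 0.011 and 28.2 kb. Within 1 kb of it lay 20 of the 274 sites by their nearest base, within 5 kb 159, and beyond 10 kb 34. For 3 sites an H3K4me3 region beyond the domain was nearer. By length, there were 0.0762 consensus sites per 10 kb in the first 1 kb, 0.108 at 1 to 2 kb, 0.303 at 2 to 4 kb, 0.418 at 4 to 8 kb and 0.417 at 8 to 16 kb, where a site was placed by its centre. Each ATAC library was lowest in the first 1 kb, at 0.110 peaks per 10 kb in replicate 1 and 0.165 in replicate 2, against 0.455 and 0.905 at 4 to 8 kb. A site that reached the H3K4me3 border counted as inside, which lowers the count next to it. Beyond 16 kb the density was 0.225, but this rests on 7 sites.

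With all domains pooled, H3K4me1 and H3K4me2 cover was lower farther from the H3K4me3, and H3K27ac fell less. The H3K4me2 values carry a doubt, because the labels name different suppliers for that antibody in the sample characteristics and in the protocol. H3K4me2 peaks covered 93.9% ± 4.08 of the bases in the first 1 kb from the H3K4me3, 53.4% ± 11.3 at 2 to 4 kb and 31.4% ± 9.22 beyond 16 kb (SD, n = 2 libraries). H3K4me1 peaks covered 98.1% ± 1.31, 84.0% ± 4.93 and 66.4% ± 3.27 at the same distances (SD, n = 3 libraries). H3K27ac peaks, which define the domain, covered 94.8% ± 3.30, 90.6% ± 4.32 and 90.4% ± 6.89 (SD, n = 2 libraries). From the first 1 kb to 8 to 16 kb, H3K27ac cover fell from 97.1% to 92.6% in replicate 1 and from 92.5% to 84.2% in replicate 2. The first 1 kb held 2.36 Mb and the sequence beyond 16 kb 0.311 Mb, which only domains with long stretches outside H3K4me3 supply. A change within domains was not separated from this change of domains, for the marks or for the open sites.

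**Figure D4:**
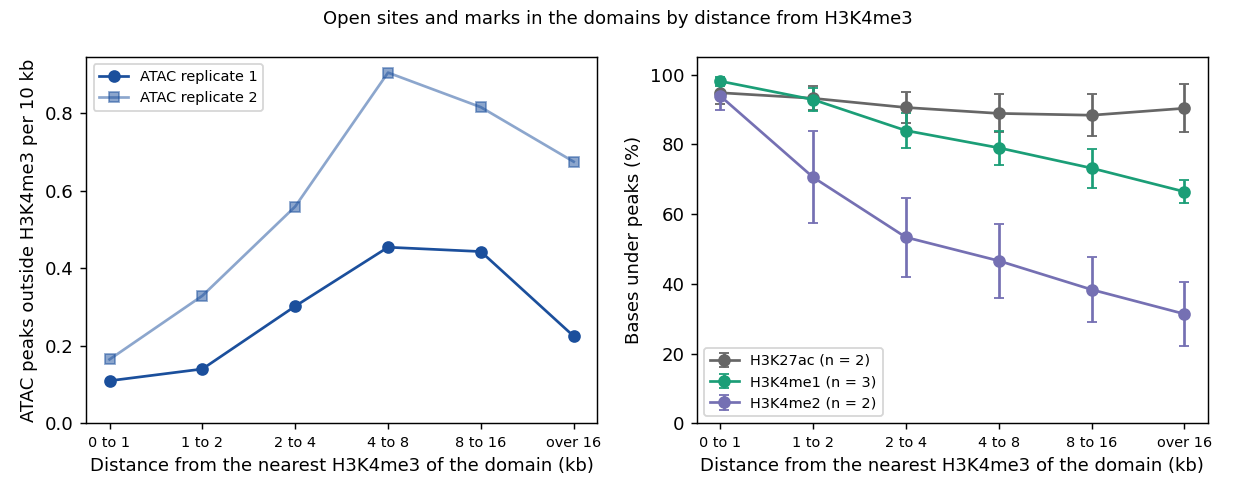
ATAC peaks outside H3K4me3 per 10 kb in each ATAC library (left) and percentage of bases under H3K27ac, H3K4me1 and H3K4me2 peaks (right, mean and SD over libraries), by distance in kb from the nearest H3K4me3 region of the same domain, in the 1061 domains. ATAC peaks are rarest in the first 1 kb, where H3K4me1 covers 98.1% and H3K4me2 93.9% of the bases.

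Outside sites lay mainly on the longer arm. The longer arms made up 63.4% of the outside bases and held 222 of the 274 sites (81.0%), which is 0.326 per 10 kb. The shorter arms held 28 sites, 0.123 per 10 kb, and the stretches between H3K4me3 blocks held 24, 0.145 per 10 kb. At the same distance from the H3K4me3 the longer arm was still the more open between 2 and 8 kb. At 2 to 4 kb it held 0.355 sites per 10 kb (60 sites) against 0.155 (9 sites) on the shorter arm, and at 4 to 8 kb 0.480 (91 sites) against 0.172 (6 sites). At 1 to 2 kb the arms held 0.123 and 0.122 per 10 kb. These densities were not tested and rest on few sites on the shorter arm. When each arm was cut into 3 equal parts, the part nearest to the H3K4me3 held 20.0% of the 250 arm sites, the middle part 47.6% and the part nearest to the domain end 32.4%.

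Every outside site lay on both H3K4me1 and H3K4me2. Of the 274 sites, 274 met a consensus region of each of these marks (interval 98.7% to 100%). Inside H3K4me3, 93.5% of 1792 sites met H3K4me1 and all 1792 met H3K4me2. In broad regions without H3K4me3, all 336 sites met H3K4me1 and 334 met H3K4me2. Outside sites were narrow, with a median of 438 bp against 574 bp inside H3K4me3 and 504 bp in broad regions without H3K4me3.

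They were also the weaker sites in the full peak lists. The median ATAC fold enrichment outside was 5.25 in replicate 1 and 5.02 in replicate 2, against 6.35 and 5.97 inside, a difference of −1.02 ± 0.103 (SD, n = 2; exact permutation p = 0.5, two-sided, the smallest possible). With peaks of −log10 q of at least 5 the difference was 0.0823, so its direction was not kept at that threshold. Among consensus sites, those outside H3K4me3 had medians of 5.50 and 6.47 in replicates 1 and 2, against 6.58 and 6.85 inside H3K4me3 and 6.13 and 8.04 in broad regions without H3K4me3.

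H3K4me1 covered similar shares of the bases outside and inside H3K4me3. Its peaks covered 89.4%, 81.7% and 86.4% of the outside bases in replicates 1, 2 and 3, against 89.3%, 81.5% and 86.1% of the bases inside H3K4me3. The difference was 0.208 ± 0.125 percentage points (SD, n = 3), higher outside in 3 of 3 libraries (exact permutation p = 0.25, two-sided, the smallest that 3 libraries allow). This direction is not settled. The difference was −1.93 points without H3K4me3 replicate 1, 5.54 without H3K4me3 replicate 2, 2.76 and 1.43 without H3K27ac replicates 1 and 2, and 10.6 with peaks of −log10 q of at least 5. In broad regions without H3K4me3, H3K4me1 covered 77.9%, 69.4% and 74.4% of the bases, below the outside sequence of the domains by 12.0 ± 0.415 points in 3 of 3 libraries (exact permutation p = 0.25, two-sided). At 8 to 16 kb from the H3K4me3 the domains had 78.6%, 67.4% and 73.6%, above the broad regions without H3K4me3 in replicate 1 only.

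H3K4me1 was thinner at the centre of the H3K4me3 blocks than at their borders. At the 1177 blocks that reached no end of their domain, it covered 92.1%, 87.6% and 89.6% of the centres in replicates 1, 2 and 3. It covered 99.8%, 98.7% and 99.8% of their borders, more than the centres in each library. At 1 kb outside the border it covered 96.2% ± 2.06 and at 2 kb 89.9% ± 3.97 (SD, n = 3). An ATAC peak covered 35.8% ± 5.35 of the centres, 6.63% ± 2.34 of the borders and 0.415% ± 0.104 of the positions 1 kb outside (SD, n = 2). The borders follow mainly H3K4me3 replicate 2, whose peaks covered 82.6% of them against 17.5% for replicate 1.

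H3K4me2 was nearly complete inside H3K4me3 and patchy outside it. Its peaks covered 54.7% and 68.3% of the outside bases in replicates 1 and 2, and 99.9% of the inside bases in each. The difference was −38.4 ± 9.63 percentage points (SD, n = 2; exact permutation p = 0.5, two-sided, the smallest possible), and between −46.0 and −26.7 in the 11 other settings that entered it. Broad regions without H3K4me3 had less than the outside sequence as a whole, at 37.9% and 51.7%. By distance from the H3K4me3, the domains had 39.1% and 54.2% at 4 to 8 kb. At 8 to 16 kb they had 31.7% and 45.0%, below the broad regions without H3K4me3 in both libraries. Consensus H3K4me2 regions that met no H3K4me3 were found in 279 of the 1061 domains (26.3%). There were 369 of them, with a median width of 2029 bp, and 23.6% (interval 19.3 to 28.2) held an open site. Broad regions without H3K4me3 held more of them, 521 in 89.5% of these regions, or 1.105 per 10 kb against 0.344 in the outside sequence. Those had a median width of 3604 bp, and 51.1% (interval 46.7 to 55.4) held an open site. In the domains this count leaves out every H3K4me2 region that met the H3K4me3. Broad regions without H3K4me3 have no such regions within their borders. The 2 sets are thus unlike by definition, and their differences in number, width and open share were not tested.

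Single domains show how differently H3K4me3 can be laid out in a long acetylated stretch. The widest, chr13:23617565-23692036 (74.5 kb), held 8 H3K4me3 blocks of 3063 to 9568 bp, from its left end to 1.76 kb before its right end, and all 18 of its open sites lay inside them. Farther along the same chromosome, chr13:23826867-23858964 (32.1 kb), with H3K27ac fold enrichments of 12.8 and 9.75 in replicates 1 and 2, likewise had 3 blocks over 72.6% of its length and 6 open sites, none outside. The other 9 of the 10 widest domains held 1 to 3 H3K4me3 blocks over 1.66% to 15.6% of their length.

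In some of these the consensus H3K4me3 was a small island. In chr4:33521682-33586674 (65.0 kb) the only consensus H3K4me3 region was 1079 bp long, with 35.9 kb of acetylation on its left and 28.0 kb on its right. The domain had open sites outside at 3.17 and 19.95 kb, with ATAC fold enrichments of 8.78 and 5.83 in replicate 1 and 8.20 and 10.2 in replicate 2. The site at 3.17 kb met an H3K4me3 peak of 1 library, and the other met none. H3K4me1 covered only 36.3% ± 4.19 of this domain (SD, n = 3), and H3K27ac replicate 2 called it as 10 peaks where replicate 1 called 1. In chr4:130237988-130298332 (60.3 kb) the consensus H3K4me3 was 1959 bp long between arms of 32.3 and 26.1 kb. Its single outside site, 1.71 kb away, met an H3K4me3 peak of 1 library. In chr3:37368043-37420941 (52.9 kb) a block of 1139 bp lay between arms of 40.7 and 11.1 kb, with an outside site at 4.63 kb. By contrast chr3:60341889-60393282 (51.4 kb) had H3K4me1 over 100% of its length in each of the 3 libraries, and its outside site lay 23.7 kb from a block of 1102 bp. That site met an H3K4me3 peak of 1 library.

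Other wide domains held several blocks with gaps between them. In chr11:11584151-11644700 (60.6 kb) blocks of 7195 and 1596 bp lay 0.697 kb from the left end and 14.7 kb from the right end, and both outside sites, at 3.26 and 12.6 kb, lay on the right. In chr6:57685667-57744026 (58.4 kb) the outside site lay between blocks of 2131 and 2452 bp, 6.93 kb from the nearer. The domains chr18:57018222-57071089 (52.9 kb) and chr16:49761991-49813694 (51.7 kb) each held 3 blocks and 1 outside site, at 2.65 and 3.81 kb. The chr11 site at 3.26 kb and the chr6 and chr18 sites met an H3K4me3 peak of 1 library, the others none. In chr15:35366715-35430187 (63.5 kb) there were 2 blocks and no outside site, and the only open site lay inside the block of 932 bp.

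**Figure D5:**
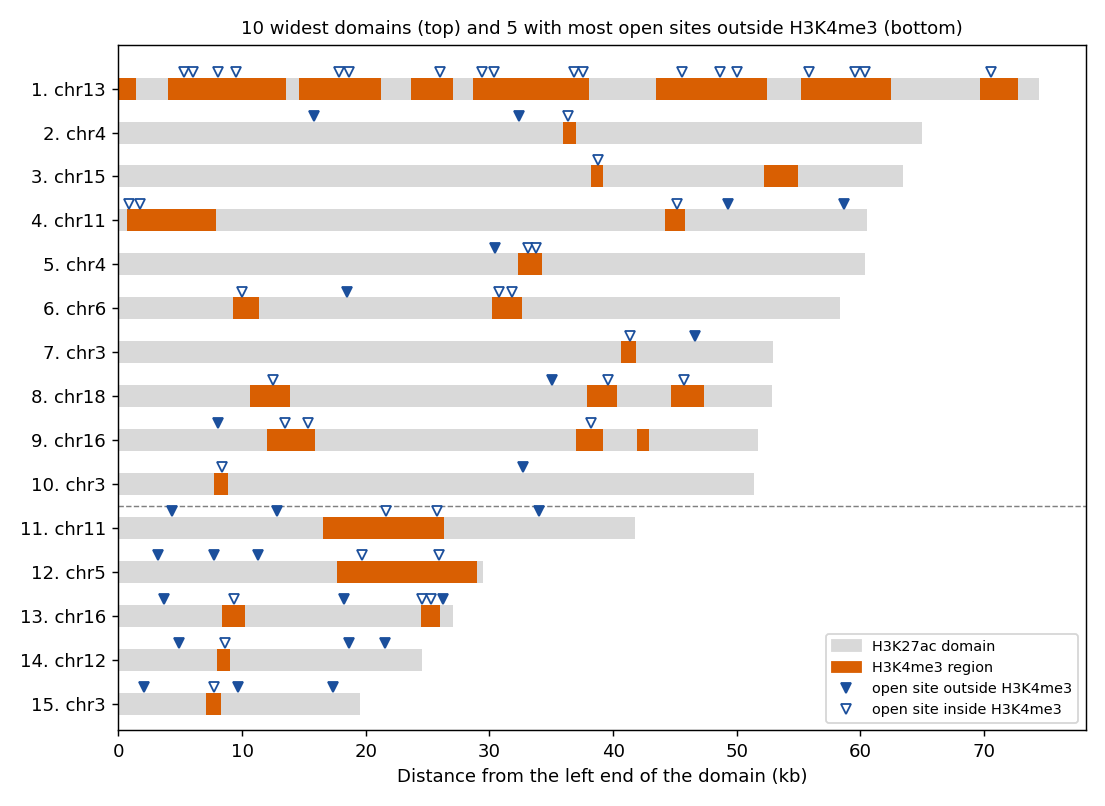
Layout of the 10 widest domains (above the dashed line) and the 5 with most open sites outside H3K4me3 (below it), in kb from the left end of each domain (horizontal axis); grey bars are the H3K27ac domain, orange blocks H3K4me3, and filled and open triangles are open sites outside and inside H3K4me3. The widest domain has 8 H3K4me3 blocks and no outside site, while the 5 lower domains have 3 outside sites each.

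No domain held more than 3 outside sites, and the 5 widest of the 7 with 3 show where these lie. In chr11:96783662-96825463 (41.8 kb) a block of 9734 bp lay between arms of 16.6 and 15.5 kb, with outside sites at 12.0 and 3.51 kb on the left and at 7.39 kb on the right. Their ATAC fold enrichments were 9.05, 6.55 and 7.47 in replicate 1 and 8.01, 9.62 and 9.97 in replicate 2. In chr5:104163545-104192994 (29.5 kb) all 3 outside sites lay on the left arm of 17.7 kb, at 6.26, 9.78 and 14.1 kb, and the right arm was 0.461 kb long. In chr16:8743056-8770075 (27.0 kb) the sites lay at 4.45, 6.14 and 0.096 kb, left of, between and right of its 2 blocks. In chr12:25556069-25580601 (24.5 kb) and chr3:40965809-40985329 (19.5 kb) short blocks of 1027 and 1166 bp had sites on either side, the farthest at 12.3 and 8.87 kb. An H3K4me3 peak of 1 library met the chr11 sites at 3.51 and 7.39 kb and the chr5 sites at 9.78 and 14.1 kb. It also met the chr16 site at 6.14 kb and the chr12 sites at 9.405 and 12.3 kb. The other outside sites of these 5 domains met none.

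The domain of highest H3K27ac fold enrichment, chr7:110987488-111030867 (43.4 kb), had 15.1 and 11.7 in replicates 1 and 2. It held H3K4me3 blocks of 3877 and 4753 bp, with arms of 19.5 kb on the left and 8.62 kb on the right. An outside site lay in the gap between the blocks, 2.87 kb from the nearer, and another lay 3.38 kb right of them. Each of these sites met an H3K4me3 peak of 1 library. Also among the 3 highest by the mean of both libraries, chr6:60876574-60887498 (10.9 kb) had 10.8 and 9.78, a block of 1417 bp and an outside site at 2.85 kb. The chr6 site met no H3K4me3 peak of either library.

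The outside sites farthest from consensus H3K4me3 were found in long one-sided domains, and a distance this large requires a long arm. In chr5:35214489-35259996 (45.5 kb) sites lay 28.2 and 14.9 kb from a block of 1269 bp, on a right arm of 35.5 kb. Neither met an H3K4me3 peak of any library. In chr18:21428527-21459535 (31.0 kb) the consensus H3K4me3 crossed the right end, and sites lay 21.8 and 13.2 kb away on an arm of 27.2 kb. Both of these sites met an H3K4me3 peak of 1 library. At the other extreme were the 5 domains with the largest H3K4me3 share, at 98.9% to 100%. They were 8.05 to 9.58 kb wide and had 1 to 4 open sites, none outside, with H3K4me1 over 61.7% to 100% of their length. These were chr14:71018932-71028513, chr5:123585743-123594817, chr8:129111113-129119180, chr13:23522752-23530999 and chr4:133306006-133314057.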

How the data were processed

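ChIP-seq (whole fetal liver) and ATAC-seq (proerythroblasts) peak lists were used as deposited, 1 list per library, in mm9 coordinates. Per the submitters' processing notes, the tools were Trimmomatic 0.32, Bowtie 1.0.1, SAMtools and MACS2. Neither the MACS2 version nor its settings and control are given in the sources used here. The ATAC samples carry the ChIP protocol text, so cell isolation, transposition and any shift of cut sites are not given either. The authors' peak columns, used as deposited, are a fold enrichment (a ratio to the background of the caller), −log10 p-values and q-values, a score (not used further) and, for ATAC, a summit. Fold enrichments were compared within a list, and the mean over the lists of a mark served to choose the named domains of highest H3K27ac. The antibody catalogue numbers in the characteristics and in the protocol also differ for H3K27ac, with the same supplier.

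Peaks were merged and permutation tests made with Python 3.11.15, numpy 2.4.6 and pandas 2.3.3. Intervals on shares were made with scipy 1.17.1 and figures with matplotlib 3.10.9. The 7 mitochondrial peaks were left out, and no filter on peak strength was applied in the reported values. The scripts were tested on simulated data. Inside and outside were compared in the same libraries by sign flips of their differences. Alternatives were peaks of −log10 q of at least 5, domains of 10 kb or more, at least 50% of a region or site inside, bases covered by every library, libraries sharing a title tag, and each library left out.

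No gene annotation or genome of mm9 was used, so the planned gene lists were not tested and regions are given by position, with no sequence. The domains, lists and tests were chosen with earlier results of these data known. Domains named are the 10 widest, the 5 with most outside sites (ties by width), the 5 with the largest H3K4me3 share, the 3 of highest H3K27ac fold enrichment, the 3 with the farthest outside site and 3 on each side of the width limit.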

Additional observations from a re-analysis of the deposited data

How the results depend on the processing

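Depth is unknown, so a shorter peak list cannot be told apart from weaker signal, and borders and counts follow the deposited thresholds. The exact tests cannot reach 0.05 with 2 or 3 libraries. No paired analysis was possible because the lists hold no counts to fit with the replicate number as a block, and the only pairs are values read in the same library. The density outside against inside H3K4me3, the density against broad regions without H3K4me3, the share of domains with an open site and the H3K4me2 difference kept their direction in every setting that entered them.

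With peaks of −log10 q of at least 5 there were 679 domains, with 39.7% of bases under H3K4me3, 30.3% with H3K4me3 at an end and 34.0% with an outside site, and the ATAC fold difference turned to 0.0823. At 10 kb or more, 17.0% had H3K4me3 at an end and the H3K4me1 difference turned to −1.12 points. Over bases covered by every library, 27.2% lay under H3K4me3, 17.5% of domains had it at an end, and the differences in open domains and in H3K4me1 were 15.4 and 9.32 points. With the libraries of the shared title tag the H3K4me1 difference was −0.535 points, the difference in open domains 41.1 points and the share with an outside site 13.6%.

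Leaving out a library gave 820 to 1263 domains, 24.9% to 34.9% of bases under H3K4me3, 13.8% to 24.0% at an end and 14.3% to 36.7% with an outside site. The differences ranged from −4.48 to −3.45 (outside against inside) and −0.731 to −0.396 (against broad regions without H3K4me3) peaks per 10 kb, 16.7 to 41.7 points in open domains, −1.93 to 5.54 points in H3K4me1, −45.2 to −31.6 points in H3K4me2 and −1.44 to −0.919 in ATAC fold enrichment. The share at an end was lowest without H3K4me3 replicate 2 and the share with an outside site highest without ATAC replicate 1. The cause of these shifts was not tested.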
